A study of Mus musculus with 15 samples.

Results

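The genes described here are 10 that encode enzymes or core subunits acting on lysines 27 and 4 of histone H3. Kdm6a and Kdm6b encode H3K27 demethylases, Kmt2a, Kmt2b, Kmt2c, Kmt2d, Setd1a and Setd1b encode H3K4 methyltransferases, and Wdr5 and Ash2l encode subunits shared by all of these methyltransferase complexes. They were taken by name from a table of 21889 genes counted in 15 mouse RNA-seq libraries, and all 10 were found there and passed the filter on low counts that left 15259 genes. Of the 15 libraries, 12 were made from granule neuron precursors (GNPs), the dividing cells of the developing cerebellum that give rise to its granule neurons, and 3 from medulloblastoma (MB), a tumour of the cerebellum. The GNPs came from mid-gestation embryos (E15.5, genotype Math1-GFP, a reporter under control of the GNP gene Math1, also called Atoh1) and from wild-type animals at postnatal days 1, 7 and 14 (P1, P7 and P14). The MB cells came from Ptch1 heterozygous mice, whose age is not labelled. Each group had 3 libraries, all from cells purified on Percoll. The Math1-GFP label occurs at E15.5 and nowhere else, so age and genotype cannot be told apart in comparisons with E15.5. Since nothing in the labels says that the libraries of a group came from separate animals, p-values measure the spread between these samples, which may be technical.

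Trimethylation of H3K27, deposited by Polycomb repressive complex 2 (PRC2), accompanies gene silencing, and the Kdm6 enzymes remove it. Methylation of H3K4 marks active promoters when it is trimethylation and enhancers when it is monomethylation. Each H3K4 methyltransferase has little activity alone and works with a core of Wdr5, Rbbp5, Ash2l and Dpy30. Kmt2c and Kmt2d act mainly at enhancers, and their complexes contain Kdm6a, so that H3K4 methylation and H3K27 demethylation sit in the same assembly. KDM6A and KMT2D are recurrently mutated in human medulloblastoma, and removal of H3K27 methylation accompanies the switching on of neuronal genes as granule neurons mature.

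The Kmt2a, Kmt2b and Setd1 complexes bind unmethylated CpG-rich DNA through CXXC domains, so the CpG content of the genes' own promoters is shown for 3 of them. Kdm6a and Wdr5 are shown because their transcripts differed between groups, and Kmt2c because its promoter held the most CpG of the 6 members with an entry in the promoter table. Each sequence is the 250 bases before the gene start on the gene's own strand, 5′ to 3′, from RefSeq (GRCm38.p6), with every CG in capitals.
Kdm6a, chrX:18162325-18162574, plus strand: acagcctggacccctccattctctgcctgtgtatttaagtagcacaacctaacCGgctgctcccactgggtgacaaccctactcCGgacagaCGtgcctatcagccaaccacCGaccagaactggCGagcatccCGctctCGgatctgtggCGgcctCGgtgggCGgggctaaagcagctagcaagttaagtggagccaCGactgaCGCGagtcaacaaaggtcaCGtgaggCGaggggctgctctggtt
Wdr5, chr2:27514897-27515146, plus strand: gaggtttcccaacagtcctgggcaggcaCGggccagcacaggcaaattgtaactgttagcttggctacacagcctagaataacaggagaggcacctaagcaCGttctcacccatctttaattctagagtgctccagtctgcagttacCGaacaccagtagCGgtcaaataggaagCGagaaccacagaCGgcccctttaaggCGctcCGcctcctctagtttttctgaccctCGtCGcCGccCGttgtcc
Kmt2c, chr5:25498784-25499033, minus strand: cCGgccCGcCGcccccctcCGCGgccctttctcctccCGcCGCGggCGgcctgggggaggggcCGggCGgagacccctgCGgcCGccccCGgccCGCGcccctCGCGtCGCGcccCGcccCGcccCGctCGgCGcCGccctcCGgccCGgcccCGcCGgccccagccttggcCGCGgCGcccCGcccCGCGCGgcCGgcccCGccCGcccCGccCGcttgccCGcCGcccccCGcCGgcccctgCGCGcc
The Kdm6a window held 15 CG and the Wdr5 window 12, against a median of 6 over all 32851 promoters of the table. The Kmt2c window held 48 CG, more than 99.8% of all promoters. Setd1a had 25, Kmt2d 26 and Kmt2a 29 in the same window, so all 6 lay above the median. At least 1 CG was present in 92.1% of all promoters, and at least 20 in 17.95%. The count is of the letters CG, which read the same on both strands.

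Counts in genes ran from 12597472 to 43443132 per library, and 39.5% to 55.4% of a library's records were counted in genes. In 2 libraries, counts over all genes deviated with transcript length or base composition. E15.5 replicate 3 had a median log2 deviation of -0.80 in genes over 8 kb and of 0.59 in genes up to 2 kb, and MB replicate 1 had -0.63 in genes over 54% GC and 0.50 in genes up to 42% GC. The methyltransferase genes are long and mostly GC-rich, from 6702 bases for Setd1a to 19805 for Kmt2d and from 47.6% GC in Kmt2c to 59.1% in Kmt2b, whereas Wdr5 (2890 bases, 51.5% GC) and Ash2l (3311 bases, 44.0% GC) are short. A second division of the libraries, called the counting set here, was read from the count of 1 gene, Tsnax, in the gene table as a share of its count per transcript, which was 0.273% or less in 6 libraries (all P7 libraries, MB replicate 1, and E15.5 replicates 1 and 3) and 92.4% or more in the other 9. For the 9 members with a matched transcript, the same share overlapped between the sets. Every P7 library is in 1 set and every P1 and P14 library in the other, so in P7 against P1 and P14 against P7 age and counting set cannot be told apart. A term for the counting set in a fit therefore rests on the E15.5 and MB libraries alone. These include E15.5 replicate 3 and MB replicate 1, so such a term also takes up their deviations by length and GC. Each comparison was also computed without these 2 libraries and with an offset for length and GC, both chosen after the data were seen; calls of the 10 members that these altered stand beside the members or their counts, and some of those of related genes are given with these. With the offset, the median log2 change of all genes was -0.29 in P1 against E15.5, -0.21 in P7 against E15.5, 0.07 in P7 against P1, -0.11 in P14 against P7, -0.02 in P14 against P1, 0.25 in MB against P7 and 0.36 in MB against P14, and its values are to be read relative to these. It called 20.5% of all genes higher and 39.9% lower in P1 against E15.5, and 18.9% and 32.4% in P7 against E15.5, where the fit to all libraries gave 25.4% and 20.9%, and 21.6% and 16.2%. For P7 against P1 the offset gave 7.29% and 3.57%, for P14 against P7 7.28% and 15.7%, and for P14 against P1 4.99% and 8.26%. The part of length and GC in the results was not tested beyond these alternatives. GNP markers (8 genes) summed to between 2865 and 8058 CPM (counts scaled to a common library size) in every library. Single markers did not move together. Mean Atoh1 was 128.6 CPM at E15.5, 11.9 at P14 and 279.8 in MB, and mean Neurod1 532.9, 1140.7 and 399.2. The sum is therefore no measure of a constant GNP state. Markers of other cells were also present: 6 astroglial genes summed to 122 to 356 CPM at E15.5, 3218 to 4199 at P14 and 766 to 1309 in MB. The 8 oligodendrocyte genes summed to 61.8 to 84.9 CPM at E15.5, 5833 to 6269 at P14 and 531 to 924 in MB, and the 4 choroid plexus genes to 25.7 to 286, 5098 to 8463 and 34.6 to 190 CPM. The 7 genes of vessels and fibroblasts summed to 23.3 to 53.1 CPM at E15.5, 1144 to 1280 at P14 and 30.3 to 38.5 in MB. No marker of these 4 lists was at 0 in all libraries of a group. Microglia and macrophage genes (6) summed to 4.68 to 20.1 CPM at E15.5, 109 to 154 at P14 and 126 to 367 in MB. Their part in the results below was not tested, and in bulk samples fewer cells of a type and less RNA per cell cannot be told apart.

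**Figure D1:**
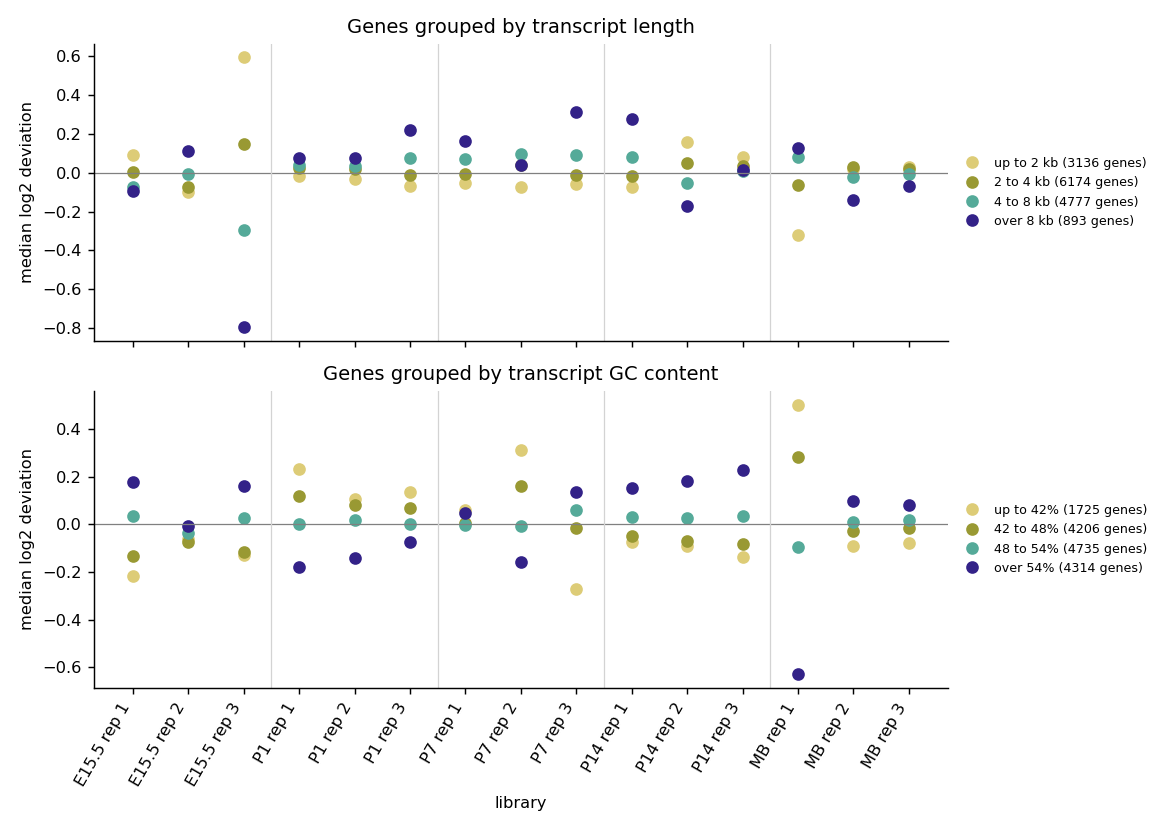
Median log2 deviation of genes from their mean over the 15 libraries, for genes grouped by transcript length (upper) and GC content (lower); each point is 1 library and 1 group of genes. In E15.5 replicate 3 genes over 8 kb lie at -0.80, and in MB replicate 1 genes over 54% GC lie at -0.63.

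Per kilobase of transcript and pooled over the 15 libraries, the shared subunits had the highest levels of the 10 and Setd1b and Kdm6a the lowest. The order was not that of every group: at P14 Kdm6b had the highest level, 37.9 CPM per kb against 27.9 for Ash2l and 25.2 for Wdr5, and at P7 it was at 33.4 against 33.1 for Wdr5. Averaged over the 15 libraries, the level was 39.9 ± 10.1 CPM per kb (SD) for Ash2l, 35.8 ± 8.38 for Wdr5 and 29.5 ± 11.8 for Kdm6b. The 5 methyltransferases Kmt2a (20.8), Kmt2c (20.8), Kmt2b (20.00), Setd1a (18.9) and Kmt2d (17.4) followed closely, and Kdm6a and Setd1b were both at 13.6 CPM per kb. Every neighbouring pair in this order differed by less than the larger of its SDs. Wdr5 exceeded Kdm6b in 9 of the 15 libraries. The step from Kdm6b to Kmt2a had the same direction in 14 of 15, while Kmt2a exceeded Kmt2c in 8 of 15 and Kdm6a exceeded Setd1b in 8 of 15. The length of Kmt2c was that of its longest GENCODE M21 transcript, and those of the others came from the deposited gene model.

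**Figure D2:**
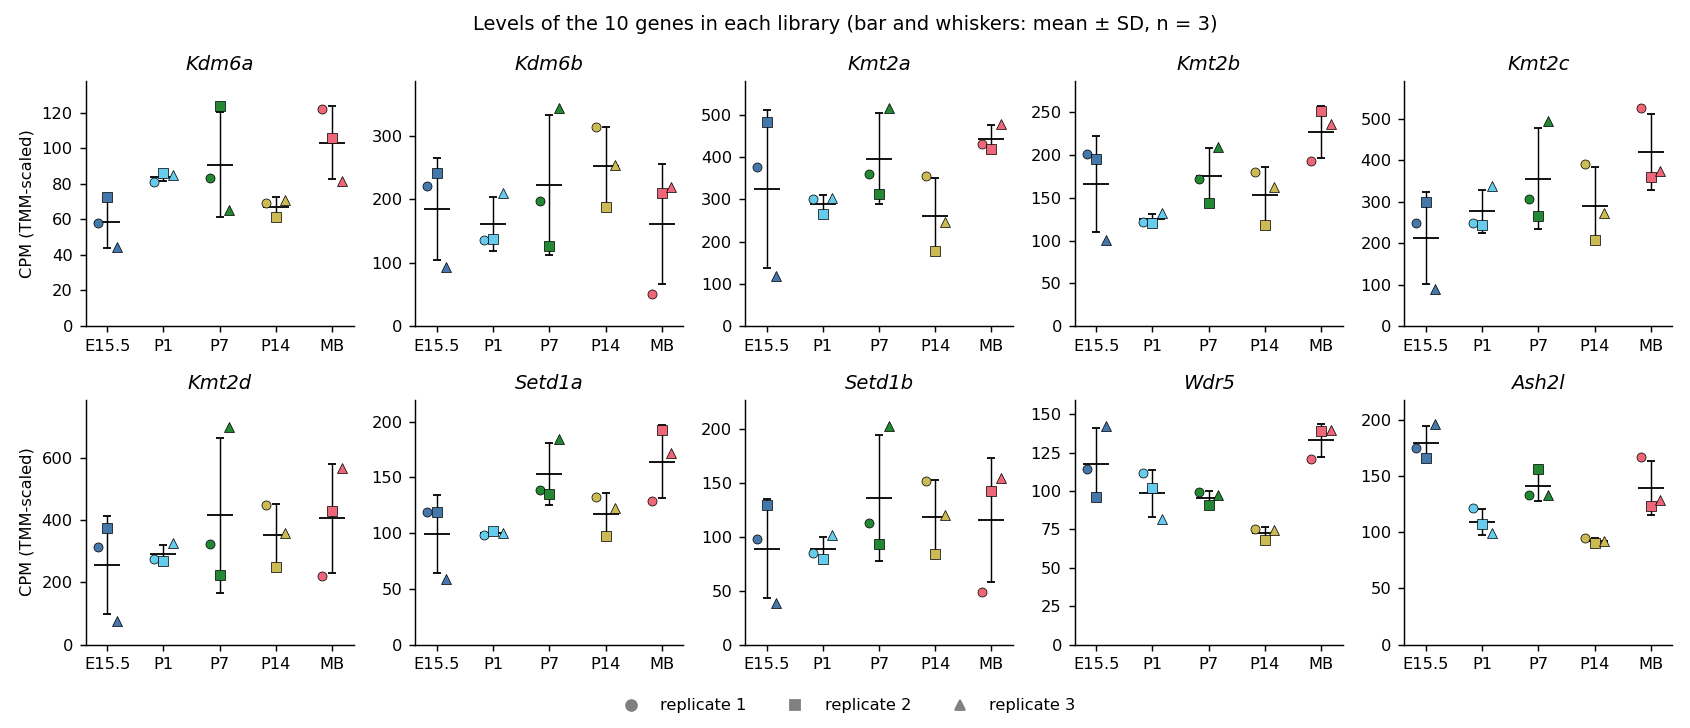
CPM (TMM-scaled) of each gene in the 15 libraries; symbols mark the replicate, and the bar and whiskers the mean ± SD of 3 libraries. E15.5 replicate 3 is the lowest library of its group for 8 of the 10 genes, all but Wdr5 and Ash2l.

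Kdm6a, the X-linked H3K27 demethylase that also serves as a subunit of the Kmt2c and Kmt2d complexes, was lowest at E15.5 and highest in MB. Its E15.5 libraries held 58.1, 72.5 and 44.2 CPM, the P1 libraries 80.9, 86.2 and 85.0, and the P7 libraries 83.3, 123.6 and 65.4. The P14 libraries held 69.3, 61.2 and 70.9 CPM and the MB libraries 122.2, 105.6 and 81.6. All MB libraries exceeded all P14 libraries, and all P1 libraries all E15.5 libraries, whereas P7 overlapped with P14. By edgeR's quasi-likelihood test, with the Benjamini-Hochberg FDR over all genes, Kdm6a was higher at P7 than at E15.5 by 0.64 ± 0.23 on the log2 scale (SE; FDR 0.0401). It was higher in MB than at P14 by 0.62 ± 0.23 (FDR 0.0363). The difference of P1 from E15.5, 0.53, did not pass (FDR 0.0723), nor did that of MB from P7, 0.18 with a 95% interval of -0.31 to 0.67. The P7 against E15.5 call was lost without E15.5 replicate 1 (edgeR FDR 0.0857) or 3 (0.191) and without P7 replicate 1 (0.071) or 2 (0.226), and with the length and GC offset the value was 0.23 (FDR 0.247). Inside 1 counting set it was 0.81 (FDR 0.0665). The MB against P14 call was lost without any 1 P14 library (edgeR FDR 0.0675 to 0.115) and without MB replicate 1 (0.114) or 2 (0.0764). It held without E15.5 replicate 3 and MB replicate 1 together (0.56, FDR 0.0405), and with the offset it was 0.78 (FDR 6.65e-04).

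Uty, the Y-linked homologue of Kdm6a, was counted in all 12 GNP libraries and in none of the 3 MB libraries. It held 21.1, 21.05 and 21.9 CPM at E15.5, 28.2, 20.9 and 24.4 at P1, 18.3, 12.1 and 22.4 at P7, and 36.2, 35.8 and 31.9 at P14. Between P7 and P14 it rose by 0.98 on the log2 scale (edgeR FDR 0.0216), a call lost with the length and GC offset (0.80). The other Y-linked genes examined were also higher at P14 than at P7 on average: Kdm5d at 50.7 against 24.4 CPM, Ddx3y at 89.7 against 45.8 and Eif2s3y at 74.9 against 44.0. In MB its count was 0, at least 519-fold lower than at P7 and at least 1054-fold lower than at P14, taking 3 counts in the MB group as the floor. Kdm5d and Ddx3y, other Y-linked genes, also had 0 counts in MB, and Eif2s3y had 2, so 4 of 4 Y-linked genes examined were at or near 0 in MB. The difference between tumour and precursor cells and the difference in Y-linked transcripts therefore cannot be told apart for Kdm6a, which lies on the X chromosome. Y-linked levels also varied among the GNP libraries. In P7 replicate 2, all 4 Y-linked genes were lowest among the P7 libraries. Kdm6a was highest there of all 15 libraries (123.6 CPM). Mean Uty was higher at P14 than at P7 (34.7 against 17.6 CPM) and mean Kdm6a lower (67.1 against 90.8). At E15.5 both means were lower than at P14 (21.3 for Uty and 58.2 for Kdm6a). The part of Y-linked transcripts in the age comparisons of Kdm6a was not tested.

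**Figure D3:**
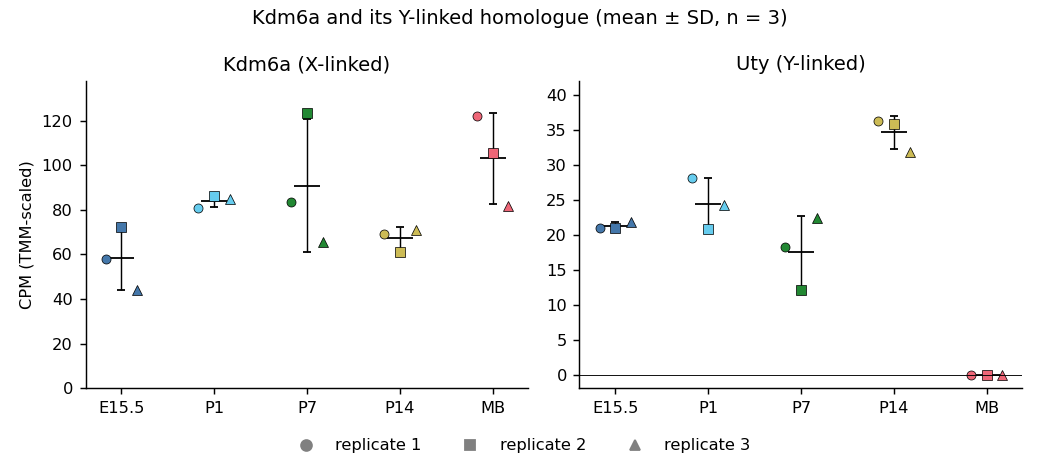
CPM of Kdm6a (left) and its Y-linked homologue Uty (right) in the 15 libraries, with mean ± SD of 3 libraries. Uty lies between 12.1 and 36.2 CPM in the GNP libraries and at 0 in all 3 MB libraries, where Kdm6a is between 81.6 and 122.2.

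Kdm6b, the H3K27 demethylase whose transcription responds to signals, gave no called difference in the fit to all libraries without a further term. Its values were 221.2, 241.7 and 92.8 CPM at E15.5, 136.4, 137.8 and 210.7 at P1, and 197.0, 126.9 and 343.6 at P7. They were 313.5, 188.5 and 253.7 CPM at P14 and 51.3, 210.2 and 220.2 in MB. The groups overlapped throughout, and the lowest value of all was in MB replicate 1, the library low in GC-rich genes; Kdm6b is 59.6% GC. The fitted difference of MB from P14 was -0.65 with a 95% interval of -1.68 to 0.38 (edgeR FDR 0.279), and with the length and GC offset it was 0.10 (FDR 0.781). Between P1 and P14 it was 0.64, with an interval of -0.39 to 1.67. In MB against P7 a counting set term in the fit to all libraries gave -1.59, which was called. Inside 1 counting set, which compares MB replicate 1 alone with the P7 libraries, the difference was -2.07. With the length and GC offset it was 0.09 (edgeR FDR 0.831).

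Within a library, Kdm6b had more counts than Kdm6a in 14 of 15. The log2 ratio of Kdm6a to Kdm6b counts lay between -2.39 and -0.04 in those 14 libraries and at 1.25 in MB replicate 1. The other MB libraries, replicates 2 and 3, gave -0.99 and -1.43, within the range of the precursors.

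Kmt2a and Kmt2b, the methyltransferases that work with menin and keep H3K4 methylation at promoters such as those of Hox genes, were highest on average in MB, without a call in the fit to all libraries. Kmt2a held 376.0, 483.0 and 117.6 CPM at E15.5, 300.7, 265.4 and 304.3 at P1, and 359.3, 312.5 and 517.8 at P7. It held 356.6, 179.0 and 245.8 CPM at P14 and 431.2, 419.9 and 480.2 in MB. All MB values lay above all P14 values, and P14 replicate 2, a library in which genes over 8 kb had a median deviation of -0.17, was the lowest of its group. Kmt2b held 201.8, 195.6 and 100.9 CPM at E15.5, 122.0, 120.2 and 132.5 at P1, 171.7, 144.3 and 209.5 at P7, 180.0, 117.7 and 162.7 at P14, and 192.8, 251.7 and 236.6 in MB. Here too the MB values lay above those at P14, and the P7 values above those at P1.

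The fitted difference of MB from P14 was 0.77 ± 0.38 for Kmt2a (edgeR FDR 0.104) and 0.57 ± 0.24 for Kmt2b (FDR 0.0657). Both were called when E15.5 replicate 3 and MB replicate 1 were left out, at 0.87 (FDR 0.011) and 0.75 (FDR 0.00269), and with the length and GC offset, at 1.41 (FDR 1.52e-05) and 1.48 (FDR 7.67e-07). Leaving out MB replicate 1 alone sufficed for Kmt2b (0.67). Between E15.5 and P1, Kmt2b had a difference of -0.41 (FDR 0.181), which became -0.72 and was called without E15.5 replicate 3. No other single library of these comparisons brought in Kmt2a or Kmt2b when left out. With the offset both were also lower at P1 than at E15.5 (-0.48, FDR 0.0354, and -0.51, FDR 0.00565, by edgeR), lower at P14 than at P7 (-0.66, FDR 0.0207, and -0.42, FDR 0.0394) and higher in MB than at P7 (0.74, FDR 0.00403, and 1.06, FDR 2.82e-05). Kmt2b was called in MB against P7 without the 2 libraries as well (0.53, FDR 0.0262). Within libraries, Kmt2a had more counts than Kmt2b in all 15, with log2 ratios from 0.22 in E15.5 replicate 3 to 1.31.

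Kmt2c and Kmt2d, the enhancer methyltransferases that hold Kdm6a, were called in no comparison in the fit to all libraries, and the standard error of Kmt2d, 0.50 to 0.51, was the largest of the 10. Kmt2c held 249.4, 299.7 and 88.9 CPM at E15.5, 249.5, 243.7 and 337.2 at P1, 307.0, 265.1 and 494.6 at P7, 391.8, 207.7 and 271.9 at P14, and 525.5, 359.7 and 373.0 in MB. The single lowest value came from E15.5 replicate 3, and MB overlapped with P7 and P14. Kmt2d held 314.3, 375.5 and 75.7 CPM at E15.5, 274.6, 270.6 and 326.9 at P1, 325.3, 222.6 and 700.2 at P7, 450.5, 248.6 and 360.3 at P14, and 220.0, 431.3 and 570.2 in MB. Its P7 values spanned all values of P1 and P14, and its highest value was in P7 replicate 3, a library in which genes over 8 kb had a median deviation of 0.31.

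The largest fitted difference of Kmt2c was P7 against E15.5, 0.74 with a 95% interval of -0.05 to 1.54 (edgeR FDR 0.129). That of Kmt2d was the same comparison, 0.71 with an interval of -0.37 to 1.79 (FDR 0.285). For MB against P14 the intervals were -0.26 to 1.32 for Kmt2c and -0.87 to 1.28 for Kmt2d, both reaching past a 2-fold increase. With the length and GC offset the same differences were 0.98 (FDR 2.19e-04) and 1.10 (FDR 0.00118) and were called. Without E15.5 replicate 3 and MB replicate 1 neither gene was called in any comparison. The log2 ratio of Kmt2c to Kmt2d counts stayed between -0.61 and 0.25 in 14 libraries and was 1.26 in MB replicate 1; Kmt2c is 47.6% GC and Kmt2d 58.4%.

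Setd1a and Setd1b, the catalytic subunits of the complexes that place most H3K4 trimethylation at active promoters, were called in no comparison in the fit to all libraries. Setd1a held 119.3, 119.0 and 58.6 CPM at E15.5, 98.2, 102.2 and 100.5 at P1, 138.9, 135.5 and 184.9 at P7, 132.6, 97.5 and 122.5 at P14, and 128.4, 192.3 and 171.8 in MB. All P7 values lay above all values at E15.5, P1 and P14. Setd1b held 98.0, 129.5 and 38.9 CPM at E15.5, 84.7, 79.1 and 101.5 at P1, 112.2, 92.9 and 202.1 at P7, 151.6, 83.5 and 119.8 at P14, and 49.0, 142.0 and 154.1 in MB. Its groups overlapped in every comparison.

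For Setd1a the difference of P7 from E15.5 was 0.63 ± 0.25 (edgeR FDR 0.0549) and that of P7 from P1 was 0.61 ± 0.25 (FDR 0.182). The former was called without E15.5 replicate 1 (0.79) or 2 (0.78). Without E15.5 replicate 3 and MB replicate 1 together, Setd1a was called higher at P7 than at P1 (0.62, FDR 0.014), lower at P14 than at P7 (-0.41, FDR 0.0458) and higher in MB than at P14 (0.71, FDR 0.00164). With the offset it was called lower at P14 than at P7 (-0.57, FDR 0.0157) and higher in MB than at P14 (1.23, FDR 7.24e-06). For Setd1b the 95% intervals were -0.52 to 1.36 for P14 against P1 and -0.98 to 0.90 for MB against P14. It was called in MB against P14 with the length and GC offset (0.78, FDR 0.0175), and in no comparison without the 2 libraries named. With a counting set term Setd1b was called higher at P7 than at E15.5 (1.09) and lower in MB than at P7 (-1.24), and Setd1a higher at P7 than at E15.5 (0.80). With the length and GC offset the same Setd1b differences were 0.33 (edgeR FDR 0.314) and 0.39 (FDR 0.23), the latter of opposite sign. That of Setd1a was 0.36 with the offset (FDR 0.0569).

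Wdr5, the WD40-repeat scaffold that holds the methyltransferase to its partners, was lowest at P14 and highest in MB. Its values were 114.3, 96.3 and 142.5 CPM at E15.5, 111.7, 102.0 and 81.5 at P1, 99.3, 90.8 and 97.1 at P7, 75.3, 68.0 and 74.8 at P14, and 120.8, 138.9 and 139.9 in MB. The MB libraries lay above all P7 and P14 libraries, and the P14 libraries below all others. By edgeR, Wdr5 was higher in MB than at P14 by 0.87 ± 0.17 (FDR 5.02e-04) and than at P7 by 0.48 ± 0.17 (FDR 0.0363). It differed among the 4 ages (FDR 0.0171), although no pair of ages was called in the fit to all libraries: P14 against P1 gave -0.44 (FDR 0.105) and P14 against P7 -0.40 (FDR 0.133). Both pairs were called by edgeR without E15.5 replicate 3 and MB replicate 1 (-0.46, FDR 0.0241, and -0.43, FDR 0.0306) and with the length and GC offset (-0.52, FDR 0.0269, and -0.57, FDR 0.0109). The offset also gave lower calls at P1 (-0.52, FDR 0.00455) and P7 (-0.47, FDR 0.0106) than at E15.5. The 4-age call was lost without P14 replicate 2 or 3, and P14 against P1 was called without P1 replicate 3 (-0.56).

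The difference of MB from P14 in Wdr5 was called in all 16 alternatives that could be computed, at 0.83 to 1.27. That of MB from P7 was lost without any 1 P7 library (edgeR FDR 0.0557, 0.0992 and 0.074 for replicates 1 to 3) and without MB replicate 2 (0.0962) or 3 (0.0944). Inside 1 counting set, which compares MB replicate 1 with the P7 libraries, it was 0.38 (FDR 0.358). Without E15.5 replicate 3 and MB replicate 1 it was 0.59 (FDR 0.00491).

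Ash2l, which binds Dpy30 and with Rbbp5 stimulates the methyltransferases, had the lowest FDR of the 10 in the test among the 4 ages. Its values were 174.5, 165.8 and 196.3 CPM at E15.5, 121.2, 107.0 and 98.9 at P1, 133.0, 155.7 and 132.8 at P7, 94.6, 89.9 and 92.2 at P14, and 166.4, 122.7 and 128.4 in MB. No 2 ages overlapped, in the order E15.5, P7, P1 and P14 from high to low, and MB lay over the P7 range. By edgeR, Ash2l fell from E15.5 to P1 by 0.71 on the log2 scale (SE 0.15, FDR 0.00168) and from P7 to P14 by 0.61 (SE 0.15, FDR 0.0252). It differed among the 4 ages with an FDR of 5.43e-04. The difference of P7 from P1, 0.37 ± 0.15, did not pass in the fit to all libraries (FDR 0.200) and passed without E15.5 replicate 3 and MB replicate 1 (0.37, FDR 0.0448) and with the length and GC offset (0.50, FDR 0.0103). The offset also gave a lower call at P7 than at E15.5 (-0.63, FDR 2.28e-04). In MB, Ash2l was 0.59 ± 0.15 higher than at P14 (FDR 0.00488) and -0.01 from P7, with a 95% interval of -0.34 to 0.31.

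The fall of Ash2l from E15.5 to P1 was called in all 17 alternatives (-1.13 to -0.52), as was its difference between MB and P14 (0.45 to 0.68). Markers of other cells moved with the former: in P1 against E15.5, 6 of 6 astroglial, 8 of 8 oligodendrocyte, 7 of 7 vessel and fibroblast, 4 of 4 choroid plexus and 5 of 6 microglial genes were called higher and 5 of 6 interneuron genes lower, and the astroglial genes summed to 2419 to 3656 CPM at P1. Over all genes, 25.4% were called higher in that comparison and 20.9% lower. The part of other cells in the fall of Ash2l was not tested. The fall from P7 to P14 was lost without P7 replicate 2 (edgeR FDR 0.112), without P14 replicate 1, 2 or 3 (0.0747, 0.106 and 0.0837), and with a term for the counting set (-0.32, FDR 0.385).

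**Figure D4:**
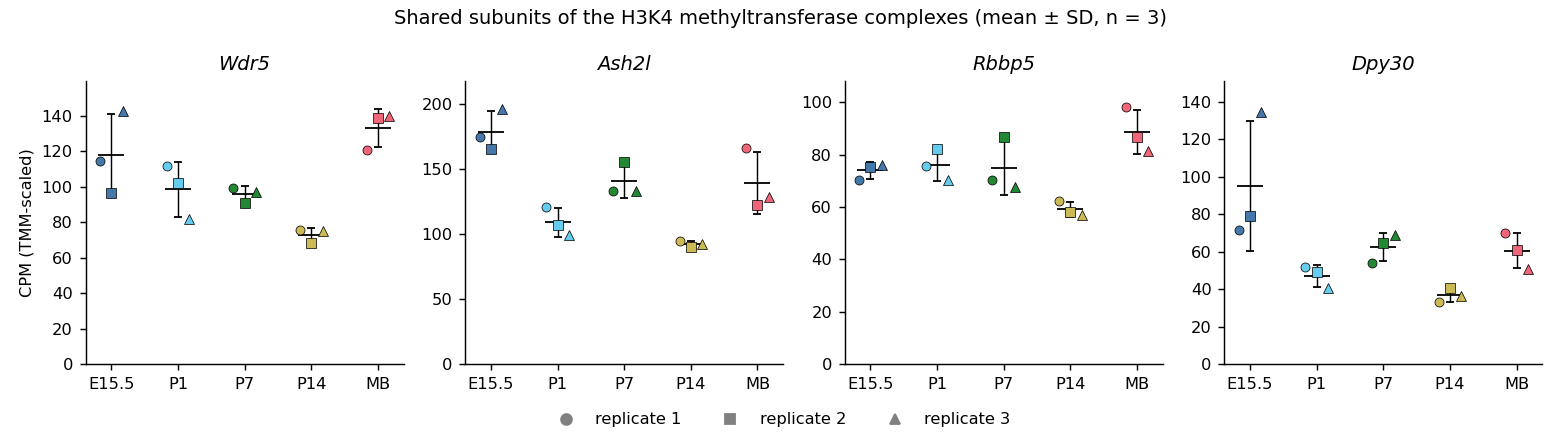
CPM of the 4 core subunits shared by the H3K4 methyltransferase complexes in the 15 libraries, with mean ± SD of 3 libraries. P14 is the lowest group for all 4, at 72.7 for Wdr5, 92.3 for Ash2l, 59.0 for Rbbp5 and 36.7 for Dpy30.

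The remaining core subunits, Rbbp5 and Dpy30, were also lowest at P14. Rbbp5 held 70.4, 75.4 and 76.1 CPM at E15.5, 75.5, 82.0 and 70.1 at P1, 70.2, 86.5 and 67.4 at P7, 62.3, 57.9 and 56.9 at P14, and 98.0, 86.9 and 81.3 in MB. It was 0.59 higher in MB than at P14 (edgeR FDR 0.00344) and was called in no other comparison in the fit to all libraries. Dpy30 held 71.3, 78.9 and 134.8 CPM at E15.5, 51.9, 48.8 and 40.6 at P1, 53.9, 64.5 and 68.6 at P7, 33.2, 40.4 and 36.5 at P14, and 69.7, 60.9 and 50.8 in MB. It fell from E15.5 to P1 by 1.01 on the log2 scale (FDR 0.00201) and from P7 to P14 by 0.76 (FDR 0.0432). It was lower at P7 than at E15.5 as well, at -0.61 (FDR 0.0429), and 0.72 higher in MB than at P14 (FDR 0.0145). The highest E15.5 value came from replicate 3, the library in which short genes were high. Without it and MB replicate 1, the fall to P1 was 0.72 (edgeR FDR 0.00262) and the difference of P7 from E15.5 was -0.31 and no longer called (FDR 0.150). All 4 core subunits were thus called higher in MB than at P14, as were 22.9% of all genes. None of the 6 catalytic H3K4 methyltransferases was called in the same fit. Their values ran from -0.04 (Setd1b) to 0.77 (Kmt2a) with SEs of 0.24 to 0.50. Those of the core ran from 0.59 to 0.87 with SEs of 0.15 to 0.22. Without E15.5 replicate 3 and MB replicate 1, 3 catalytic genes were called higher (Kmt2a, Kmt2b and Setd1a), as were 30.2% of all genes. With the length and GC offset all 6 were, as were 44.0% of all genes. Whether the core subunits and the catalytic subunits differed from each other was not tested.

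**Figure D5:**
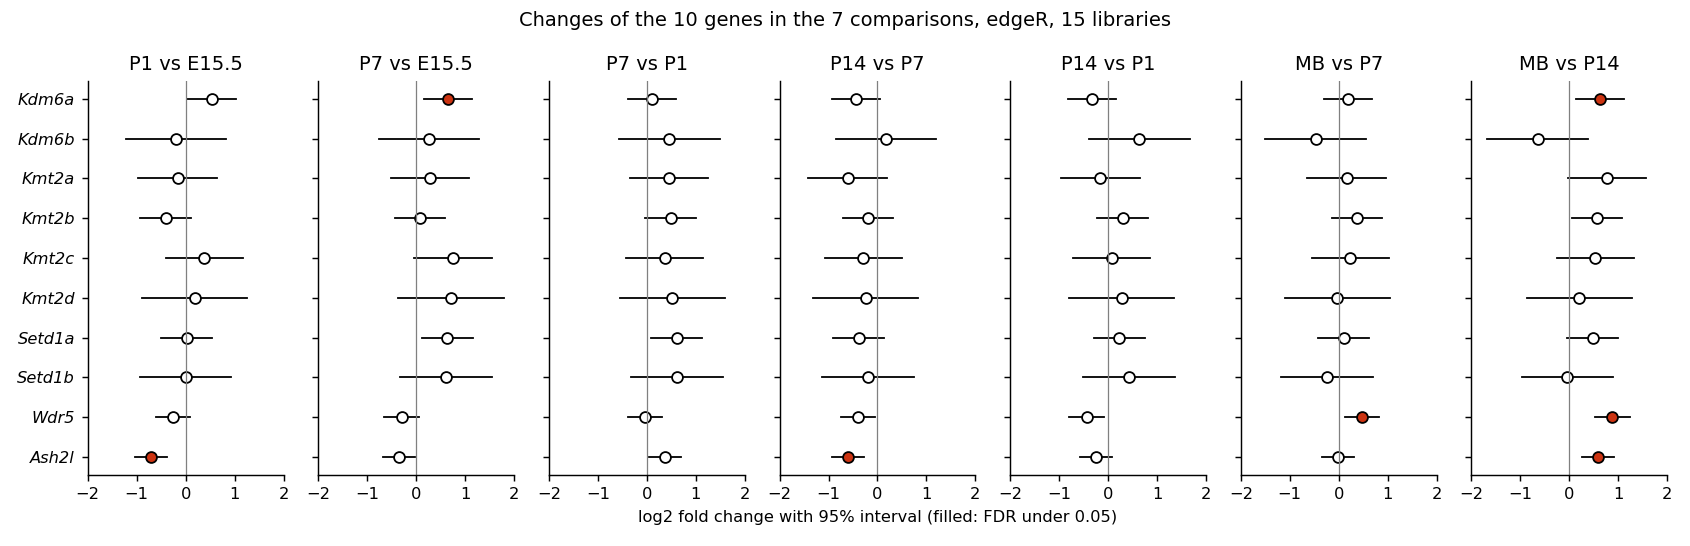
Fitted log2 fold change with its 95% interval for each gene in the 7 comparisons (edgeR, 15 libraries); filled points have an FDR under 0.05. The calls are Ash2l in P1 against E15.5 and P14 against P7, Kdm6a in P7 against E15.5, Wdr5 in MB against P7, and Kdm6a, Wdr5 and Ash2l in MB against P14.

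At P1 against E15.5, 0 of 10 were called higher and 1 lower, where 25.4% and 20.9% of the 15259 genes were; the median log2 change was -0.08 for the members and 0.03 for all genes. At P7 against E15.5, 1 of 10 was higher and 0 lower, against 21.6% and 16.2% of all genes, with medians of 0.45 and 0.02. The members' medians here and below come from the fit to all libraries, in which E15.5 replicate 3 was low in long genes. In that fit the members' values at P7 against E15.5 ran from -0.35 (Ash2l) to 0.74 (Kmt2c). Without that library and MB replicate 1 they ran from -0.31 (Ash2l) to 0.44 (Kdm6a), with 0.33 for Kmt2c and a median of 0.01 for all genes. Inside 1 counting set, P1 against E15.5 called Ash2l (-0.61) and Kmt2b (-0.65), where E15.5 is replicate 2 alone and is assumed to vary like the other groups, and P7 against E15.5 called none.

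From P1 to P7 none of the 10 was called, with 2 at an unadjusted p under 0.05 and 0 by DESeq2, where 1.4% of all genes were called higher and 1.74% lower; the members' median was 0.46 and that of all genes -0.01. From P7 to P14, 0 were higher and 1 lower, against 5.81% and 4.51%, with medians of -0.34 and -0.00. From P1 to P14 none was called, with 1 at an unadjusted p under 0.05 and 0 by DESeq2, against 3.63% higher and 5.31% lower, and the medians were 0.15 and 0.01. Inside 1 counting set Wdr5 was called in this comparison (-0.45). These comparisons share the P1, P7 and P14 libraries, so a high P7 value enters both neighbouring steps with opposite sign. In the test of any difference among the 4 ages, 2 of 10 were called (Wdr5 and Ash2l), against 55.7% of all genes. Without E15.5 replicate 3 there were 5, with Kmt2a, Kmt2b and Setd1a added, where 7767 of 15456 genes were called.

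In MB against P7, 1 of 10 was higher and 0 lower, where 13.7% and 20.7% of all genes were, with medians of 0.13 and 0.02. In MB against P14, 3 of 10 were higher and 0 lower, where 22.9% and 27.2% were, with medians of 0.55 and 0.01. The count for MB against P14 depended on how the 2 odd libraries were treated: it was 6 without them (Kdm6a, Kmt2a, Kmt2b, Setd1a, Wdr5 and Ash2l), where 30.2% of all genes were called higher and 28.3% lower. It was 9 with the length and GC offset, all higher, with Kdm6b as the exception, where 44.0% of all genes were called higher and 22.5% lower and the median of all genes was 0.36. Inside 1 counting set, MB replicates 2 and 3 against the P14 libraries called the same 6 as without the 2 libraries, at 0.51 for Kdm6a, 0.82 for Kmt2a, 0.70 for Kmt2b, 0.66 for Setd1a, 0.97 for Wdr5 and 0.47 for Ash2l. In MB against P7 the offset gave 7, where 34.4% of all genes were called higher and 19.0% lower and their median was 0.25: the values were 0.45 for Kdm6a, 0.74 for Kmt2a, 1.06 for Kmt2b, 0.73 for Kmt2c, 0.74 for Kmt2d, 0.66 for Setd1a and 0.71 for Wdr5. In MB against P14, 6 of 6 genes of maturing granule neurons were also called lower, as were 5 of 6 astroglial, 6 of 8 oligodendrocyte, 3 of 4 choroid plexus and 7 of 7 vessel and fibroblast genes. Purkinje cell genes (5 of 6) and interneuron genes (5 of 6) were called lower too. Of the microglia and macrophage genes, 4 of 6 were called higher, as they were in MB against P7 (4 of 6). Of the 8 GNP markers, 4 were called higher and 3 lower in MB against P14.

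The partners that define the separate complexes were examined from a list of 33 related genes, all of which passed the filter. Of the Kmt2a and Kmt2b partners, 3 of 4 were called higher in MB than at P14 and 1 lower, where 22.9% and 27.2% of all genes were. Men1, which encodes menin, was higher by 0.80 (edgeR FDR 0.0038), Psip1, a chromatin tether of menin, by 1.00 (FDR 0.0058) and Hcfc1 by 0.79 (FDR 0.0162). Hcfc2 was lower, at -0.78 (FDR 0.00319), with 85.1 ± 0.709 CPM at P14 and 49.7 ± 10.6 in MB (SD, n = 3). Men1 and Psip1 also fell from E15.5 to P1, by 1.04 (FDR 7.93e-04) and 0.80 (FDR 0.0223), while Hcfc2 rose by 0.52 (FDR 0.0362).

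Of the 3 partners of Kmt2c and Kmt2d, Paxip1, a subunit found in these complexes and not in those of Kmt2a or Setd1a, stood at 82.8 ± 6.01 CPM at P14 and 172 ± 6.30 in MB (SD, n = 3). It was 1.05 higher in MB by edgeR (FDR 1.18e-04) and fell by 0.72 from P7 to P14 (FDR 0.019). Pagr1a, its binding partner, fell from E15.5 to P1 by 0.64 (FDR 0.0077) and rose from P1 to P14 by 0.70 (FDR 0.0259). Ncoa6 was called in no comparison in the fit to all libraries. Of the 3 Setd1 partners, Cxxc1, the CXXC protein that brings the complex to CpG islands, was 0.48 higher in MB than at P14 (FDR 0.0469). Bod1l rose from E15.5 to P1 by 1.14 (FDR 0.00708), and Wdr82 was called in no comparison in that fit.

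The opposing enzymes were examined in the same way. Of 6 H3K4 demethylase genes, 2 were called higher and 2 lower in MB than at P14, where 22.9% and 27.2% of all genes were. Kdm5a held 127.6, 105.7 and 114.9 CPM at P14 and 321.6, 202.0 and 195.3 in MB, a difference of 1.05 (edgeR FDR 5.96e-04), and was also 0.90 higher than at P7 (FDR 0.00284). Kdm5b held 184.5, 113.9 and 137.4 CPM at P14 and 84.1, 87.2 and 100.1 in MB, a difference of -0.68 (FDR 0.0112). Kdm1a was higher by 0.60 (FDR 0.00554), and Kdm5d, being Y-linked, was at 0 in MB. With age, Kdm5a rose from E15.5 to P1 by 0.85 (FDR 0.00339), and Kdm5b and Kdm1a fell by 0.64 (FDR 0.0172) and 0.69 (FDR 0.00241).

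Of the 4 PRC2 genes, which place the mark that Kdm6a and Kdm6b remove, 3 were called higher in MB than at P14. Over all genes, 22.9% were. Ezh2, the catalytic subunit of dividing cells, held 159.0, 253.6 and 203.7 CPM at P7, 104.5, 97.9 and 101.8 at P14, and 342.8, 376.6 and 330.2 in MB. It fell from P7 to P14 by 1.02 (edgeR FDR 0.00873) and was 1.79 higher in MB than at P14 (FDR 2.77e-06) and 0.77 higher than at P7 (FDR 0.00441). Suz12 was higher in MB than at P14 by 0.84 (FDR 0.00267) and Eed by 0.53 (FDR 0.045), while Ezh1, the subunit of nondividing cells, was called in no comparison in that fit. The H3K27 acetyltransferase genes Ep300 and Crebbp, which act on the same residue, were called in none either in the fit to all libraries.

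Over all 33 related genes, 6 were called higher and 7 lower at P1 against E15.5, where 25.4% and 20.9% of all genes were, and 5 and 3 at P7 against E15.5, where 21.6% and 16.2% were. P7 against P1 called 0, against 1.4% and 1.74% of all genes. P14 against P7 gave 2 higher and 4 lower, against 5.81% and 4.51%, and P14 against P1 gave 1 and 1, against 3.63% and 5.31%. MB against P7 gave 3 and 4, against 13.7% and 20.7%, and MB against P14 gave 14 and 4, against 22.9% and 27.2%. In the last, 2 of the 4 lower genes were the Y-linked Uty and Kdm5d, and the median log2 change was 0.48, against 0.01 for all genes. These numbers moved widely between the alternatives. The sum of higher and lower calls ran from 6 to 23 in P1 against E15.5, 3 to 12 in P7 against E15.5, 0 to 8 in P7 against P1, 0 to 15 in P14 against P7, 0 to 9 in P14 against P1, 3 to 20 in MB against P7 and 13 to 29 in MB against P14.

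Some calls of related genes named above were lost under the alternatives. Without E15.5 replicate 3 and MB replicate 1, Eed was not called in MB against P14 (0.50, edgeR FDR 0.0531). With the length and GC offset, Hcfc2 was not called in P1 against E15.5 (0.12, FDR 0.511), Pagr1a not in P14 against P1 (0.29, FDR 0.240) and Kdm5b not in MB against P14 (-0.28, FDR 0.106). Others were gained: in MB against P14 Wdr82 was called without the 2 libraries (0.49, FDR 0.0104), and with the offset Ezh1 (0.89), Ep300 (0.89), Crebbp (0.72), Ncoa6 (0.94) and Wdr82 (0.53) were called.

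The members' correlations with each other changed with the correction for length and GC. Across the 15 libraries, the Pearson correlation of log2 CPM was 0.93 between Kmt2d and Setd1b, 0.88 between Kmt2a and Kmt2c and 0.68 between Wdr5 and Ash2l, and it was -0.33 between Kdm6a and Kdm6b. These are descriptions over 15 libraries that share the deviations by length and GC given above. After the offset the same pairs gave 0.91, 0.84, 0.77 and 0.01, and Kdm6a with Setd1a went from 0.51 to 0.89. Wdr5 with Kmt2a went from 0.14 to 0.80 and Wdr5 with Kmt2b from 0.28 to 0.84, both above Wdr5 with Ash2l after the offset.

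For the 3 members with the widest range of group means, the genes most like them in log2 CPM were sought among 14970 with a symbol. All 15 libraries were used, without the length and GC offset, and the part of length and GC in these correlations was not tested. Nearest to Kmt2c were Ash1l (0.98), Ank3 (0.97) and Ern1 (0.97), with Ash1l encoding another histone methyltransferase. Both Kmt2c (88.9 CPM) and Ash1l (64.4 CPM) were lowest in E15.5 replicate 3, the library low in genes over 8 kb. Nearest to Ash2l were Spats2 (0.97), Psma4 (0.96) and Taf12 (0.96), and nearest to Kdm6b were Nlgn2 (0.96), Adgrl1 (0.96) and Ptger1 (0.95).

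The transcript table, which counts a read for every transcript it overlaps, held several well-counted models for 3 members. Positions here are in mm9, the build named in the submitters' processing notes. Ash2l (chromosome 8, 26926663 to 26958166, minus strand) had 4 models with means of 3513 to 3830 counts, all of them near the whole gene's total. Setd1a (chromosome 7, 134920184 to 134943636, plus strand) had 2 full-length models of 19 exons with means of 3694 and 3650 counts, and a model of 3 exons with 150. Setd1b (chromosome 5, 123592202 to 123617444, plus strand) had 2 models of 17 and 16 exons at 3095 and 3063 counts and a model of 2 exons at 206. Because these models share most of their exons, their counts do not separate isoforms. In the table of start-site models, the matched Setd1a model held 11.3% to 19.1% of the gene's counts, against at least 97.0% for each of the other 7 matched members.

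Kdm6a (chromosome X, 17739701 to 17857062, plus strand), Kdm6b (chromosome 11, 69212010 to 69227177, minus strand), Kmt2a (chromosome 9, 44611438 to 44689379, minus strand) and Kmt2b (chromosome 7, 31353877 to 31373736, minus strand) each had 1 model, as did Kmt2d (chromosome 15, 98662100 to 98701614, minus strand) and Wdr5 (chromosome 2, 27370677 to 27392055, plus strand). In the transcript table, MB against P14 gave calls for Kdm6a (0.68), Kmt2b (0.62), Wdr5 (0.93) and Ash2l (0.67). Kmt2c was not matched there by identifier, and Kmt2c and Wdr5 were not matched in the start-site table. Strand was not stated for the counting, so reads from a gene and from a transcript on its opposite strand cannot be told apart.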

How the data were processed

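Poly(A) RNA of 15 libraries was sequenced on a HiSeq 2500 from TruSeq v2 libraries, per the labels' protocols. The authors deposited raw read counts per gene, per start-site model and per transcript; the submitters' processing notes name Trimmomatic, TopHat, StringTie and HTSeq and the build mm9, with versions not given in the sources used here. The gene table was used, with its summary lines left out of library sizes. Ensembl IDs were mapped to symbols with the reference tables (20358 of 21889 matched). edgeR 4.0.16 in R 4.3.3 was used: filterByExpr (minimum count 10, total 15), TMM scaling, 1 mean per group over all 15 libraries, the quasi-likelihood F-test and Benjamini-Hochberg adjustment over 15259 genes, called at an FDR under 0.05. The code was tested on simulated data. Alternatives included DESeq2 1.42.0, leaving out each library, and an offset for transcript length and GC (GENCODE M21, 98.2% of genes covered). All 10 members are reported in every comparison. Of related genes, called ones are counted and up to 3 a list, with the lowest FDR in the 4-age test, are named; Hcfc1, Kdm5d, Eed, Setd2 and Smyd3 were named after their values were seen. Members and lists were chosen with earlier results of these data known.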

Additional observations from a re-analysis of the deposited data

How the results depend on the processing

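No called change of Kdm6a, Wdr5 or Ash2l reversed direction under any alternative that was run. Of the 7 calls, Ash2l in P1 against E15.5 (17 of 17 alternatives) and in MB against P14 (17 of 17) and Wdr5 in MB against P14 (16 of 16) were kept throughout, while Kdm6a in P7 against E15.5 was kept in 6 of 17, Ash2l in P14 against P7 in 11 of 16, Wdr5 in MB against P7 in 6 of 16 and Kdm6a in MB against P14 in 12 of 17. The number of the 10 genes called moved as follows; the cause was not tested. The number of all genes called also moved, and stands in brackets beside the number tested. P7 against E15.5, with 1 call, had 0 with DESeq2 size factors (5850 of 15259). With only the groups compared (4888 of 14486), the transcript table (6595 of 17454) and within 1 counting set (5004 of 15515) it had 0. DESeq2 (6371 of 15259) and the start-site table (6005 of 16354) gave 2, and a counting set term (5770 of 15259) gave 3. MB against P7, with 1 call, had 0 without the low-count filter (5246 of 19133) and with only the groups compared (3639 of 14490). It had 0 with the start-site table (5472 of 16354) and 2 with the counting set term (4975 of 15259). Only the groups compared gave 2 in P14 against P7 (3838 of 14810) and 2 in P14 against P1 (4089 of 14833). Within 1 counting set there were 1 in P14 against P1 (4714 of 15574) and 6 in MB against P14 (9626 of 15574). P1 against E15.5 leaves 1 E15.5 library there, and its values were -0.61 for Ash2l and -0.65 for Kmt2b. The counting set term gave 0 in P14 against P7 (295 of 15259), 5 in MB against P14 (7283) and 4 among the 4 ages (8163). The length and GC offset gave 4 in P1 against E15.5 (9223 of 15259), 2 in P7 against E15.5 (7840) and 1 in P7 against P1 (1657). It gave 5 in P14 against P7 (3510), 1 in P14 against P1 (2023) and 7 in MB against P7 (8154). In MB against P14 it gave 9 (10149), and among the 4 ages 5 (11031). Without E15.5 library 3 and MB library 1 the numbers were 2, 0, 2, 3, 1, 2, 6 and 5 in the same order. Of 15400 genes, 7541, 5852, 2310, 4161, 4009, 6916, 9012 and 10339 were called there. Leaving out 1 library at a time gave 1 to 2 calls in P1 against E15.5 (5666 to 6890) and 0 to 2 in P7 against E15.5 (4335 to 5953). It gave 0 to 1 in P14 against P7 (125 to 1077), P14 against P1 (154 to 2714) and MB against P7 (4387 to 5846). In MB against P14 it gave 2 to 3 (6462 to 7794), and among the 4 ages 1 to 5 (7248 to 8518). Each of these fits tested 15441 to 15508 genes. With 3 libraries a group, the 95% intervals of the long, GC-rich genes span over 2 log2 units for Kmt2d, so changes of moderate size were not detectable for it.

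Pairing by replicate number was not assumed. Same-numbered libraries of 2 groups deviated together, with a correlation over 0.1, in 7 of 30 pairs of libraries (-0.31 to 0.33). This cannot exclude pairing, because the deviations also hold the shifts by length and GC. With the replicate number as a block, 2 genes were called in P1 against E15.5 (Ash2l and Kdm6a, the latter at 0.56) and 0 in MB against P7.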

Other observations

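Among 8 genes for other SET-domain enzymes, 2 were called higher at P1 than at E15.5 and 2 higher in MB than at P14 by edgeR's quasi-likelihood test, where 25.4% and 22.9% of all genes were. Setd7, a lysine methyltransferase that can monomethylate H3K4, held 55.3 ± 18.2 CPM (SD, n = 3) at E15.5, and its libraries held 110.3, 121.3 and 169.0 at P1, and 152.5, 132.0 and 162.0 at P7. It held 213.5, 161.5 and 179.0 CPM at P14 and 173.5, 139.2 and 153.0 in MB. It rose from E15.5 to P1 by 1.28 on the log2 scale (FDR 5.00e-04), and by 0.79 with the length and GC offset (FDR 2.07e-04). The other gene called there, Nsd2, an H3K36 methyltransferase, was not called without E15.5 replicate 3 and MB replicate 1 (0.31, edgeR FDR 0.128) or with the offset (-0.01, FDR 0.949). Nsd2 was higher in MB than at P14 by 0.86 (FDR 0.00167), and Setd2, which trimethylates H3K36, by 0.65 (FDR 0.0402). Smyd3 was 0.53 higher in MB than at P7 (FDR 0.025).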
